A study of Danio rerio with 10 samples.

Results

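The genes of the proteasome were followed across 10 arrays of whole zebrafish (Danio rerio) embryos. Members were chosen by name: every gene whose single annotated symbol starts with psma, psmb, psmc, psmd, psme, psmf or psmg followed by a number. Left out was psmc3ip, a recombination gene that does not encode a proteasome subunit. Of 8793 genes on the array, 49 were members, each read by its brightest probe set over all 10 arrays. They comprise 20 core genes (psma and psmb), 21 cap genes (psmc and psmd), 3 assembly genes (psmg) and 5 others, which are the activators psme1, psme2 and psme3, the inhibitor psmf1 and psme3ip1, a binding partner of psme3 that is not itself a subunit. RefSeq lists 9 further genes whose names fit, psma3, psma6b, psmb11a, psmb11b, psmd11a, psmd14, psme4a, psme4b and psmg4, and they were not analysed here.

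Experiment 1 held 3 arrays labelled Sb morphant and 3 labelled wildtype, all at 4.3 h post fertilization (hpf). The morphant embryos were injected at the 1-2 cell stage with a morpholino, an antisense oligonucleotide, that covers an intron-exon junction of sox19b and so acts on splicing. The series text describes the wildtype embryos of this experiment as injected with placebo, and they are called control here. Experiment 2 held 2 arrays of wildtype embryos from before the mid-blastula transition (2.5 hpf) and 2 from after it (4 hpf). The labels name no strain, dose of morpholino, number of embryos per array or parents of a batch, so p-values measure the spread between these samples, which may be technical. Values are log2 expression values as the authors normalized them, and 1 unit of difference stands for a 2-fold change. The experiments were normalized apart, and levels are compared only within one.

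The proteasome is the protease that degrades proteins tagged with ubiquitin. Its core is a barrel of stacked rings: the outer rings are built of alpha subunits (psma genes), which gate the entry, and the inner rings of beta subunits (psmb genes), of which psmb5, psmb6 and psmb7 carry the active sites. The cap binds the ends of the barrel: a ring of ATPases (psmc genes) unfolds the substrate, and non-ATPase subunits (psmd genes) bind ubiquitin and remove it. Dedicated chaperones build the particle and are absent from it when it is finished: in mammals psmg1 pairs with psmg2 and psmg3 with psmg4 to build the alpha ring, pomp guides the beta ring, and psmd5, psmd9 and psmd10 hold pairs of ATPases during assembly of the cap. An embryo before the mid-blastula transition relies on transcripts and proteins laid down in the egg, and the degradation of maternal proteins is one known task of the proteasome at this stage.

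The targeted gene was higher, not lower, in the arrays labelled morphant. Its brighter probe set rose by 0.97 and the other by 1.33 on the log2 scale (limma, adjusted p = 0.00214 and 0.000182). The brighter sox19b probe set read 9.13, 8.80 and 9.18 there and 8.48, 7.63 and 8.09 in controls, and the other 8.62, 8.38 and 8.67 and 7.66, 6.84 and 7.16; since a morpholino of this kind alters splicing, transcript levels tell little of how far the protein was depleted. Control replicate 2 stood apart, correlating with the other controls at 0.99 and 0.992 over probe sets where they correlated with each other at 0.996; without it, 20 of the genes followed here fell and 4 rose, the same counts as with it. As markers of a blastula, all 7 maternal and pluripotency genes listed were above background in every group, and of 8 measured genes of late tissues 6 were at background in every group, while actc1b and ins were above it. Background here is the highest mean among 17 tag control probe sets without a zebrafish target, 5.10 and 5.13 in arrays labelled morphant and in controls, 6.24 at 2.5 hpf and 6.33 at 4 hpf. Markers of the enveloping layer, the embryo's outer cell layer, moved with the comparison of experiment 1: 6 of 6 fell, their summed log2 values were 31.9 to 35.0 in arrays labelled morphant and 53.7 to 55.9 in controls, and krt5 and krt97 were at background in arrays labelled morphant and cldne in both groups. Of the 7 maternal and pluripotency markers 4 rose and 1 fell, and their summed log2 values were 70.6 to 71.5 in arrays labelled morphant and 60.8 to 62.9 in controls. The part of either list in the values below was not tested. In a whole embryo, fewer cells of a type and less RNA per cell cannot be told apart.

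The first comparison asks how the proteasome genes differed in embryos labelled as given the sox19b morpholino. Of the 49 members, 20 fell and 4 rose (limma, adjusted p below 0.05 over all 15502 probe sets), and 25 were not called. Over all 8793 genes 21.5% fell and 26% rose, against 40.8% and 8.16% of the members. Among the falls were all 7 standard beta subunits, 4 of 8 alpha subunits, 3 of 7 ATPases, 4 of 14 non-ATPase cap genes and 2 of 3 assembly genes. The 4 rises were those of psmd10, psmg3, psmd5 and psmf1. None of these genes encodes a subunit of the finished core or cap, a grouping made after values were seen. The members' median difference was -0.19, beside -0.02 over all genes. Scaling the arrays on Bacillus control probe sets, which moved the median of all probe sets from -0.04 to 0.21, gave 16 falls and 11 rises among the members. Of those rises, 5 were of genes of the finished core or cap. Over all 15502 probe sets 7618 were called under this scaling, beside 6591 without it. The shares of all genes that fell and rose under it were not counted, so these member counts have no share beside them. The member median was 0.05 under this scaling. Relative to the median of all probe sets, the members' median was -0.16 under both. That equality was fixed in advance, since this scaling adds a constant to every difference.

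**Figure D1:**
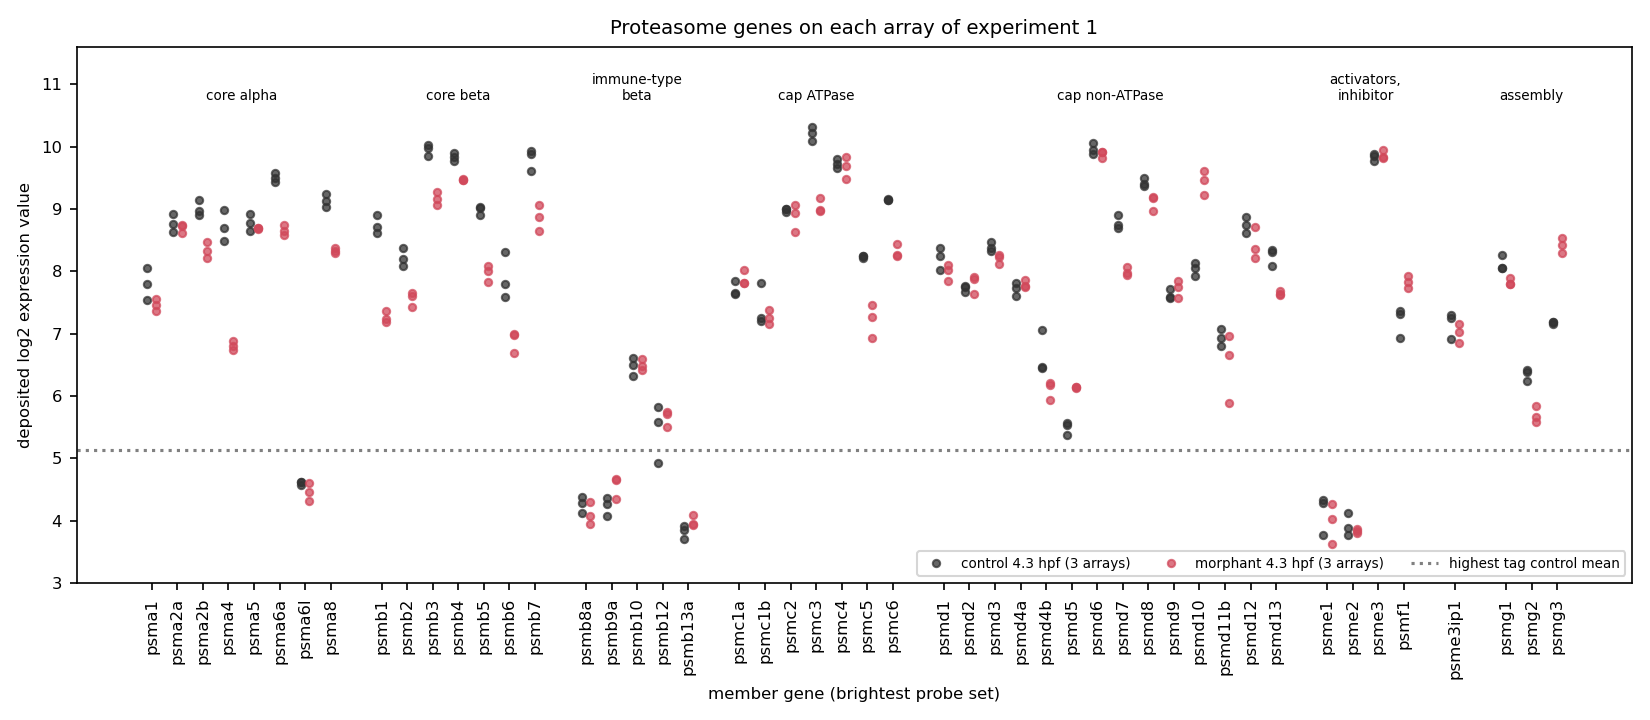
Log2 expression value (y axis) of each of the 49 member genes (x axis, by subset) on the 3 control arrays (dark points) and the 3 arrays labelled morphant (red points), with the dotted line at the highest tag control mean. Controls lie above the arrays labelled morphant, with no overlap, for each of the 7 genes psmb1 to psmb7. They lie below them for psmd5, psmd10, psmf1, psmg3 and psmb13a, the last at background in both groups. Groups did not overlap for 26 of the 49 members, and the share over all genes was not counted. Levels of different genes are not comparable on this scale.

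The core genes carried most of the falls. Of 20 core genes, 11 fell and 0 rose (limma, with 1 higher at an unadjusted p below 0.05). That is 55% falling, where 21.5% of all genes fell and 26% rose. The core median was -0.51, beside -0.02 over all genes. At background in both groups were 4 of the 20. The gene psma4, which encodes an alpha subunit of the gate ring, read 6.73, 6.87 and 6.80 in arrays labelled morphant and 8.48, 8.99 and 8.70 in controls. It was lower in every array labelled morphant than in any control, and at -1.92 (SE 0.14, adjusted p = 1.61e-06) its fall of 3.79-fold was the largest of any member. The gene psmb1, a structural subunit of the beta ring, read 7.18, 7.36 and 7.24 against 8.61, 8.90 and 8.71 in controls. Its groups did not overlap either, and it fell by 1.48 on the log2 scale (SE 0.11, adjusted p = 3.08e-06).

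All 3 genes for the catalytic beta subunits fell by close to 1 on the log2 scale. For psmb5, the subunit that cleaves after hydrophobic residues, the arrays labelled morphant read 8.00, 8.09 and 7.82 and the controls 9.02, 9.04 and 8.91, a difference of -1.02 (SE 0.11, adjusted p = 3.24e-05). Psmb6, which cleaves after acidic residues, read 6.69, 6.99 and 6.98 against 7.59, 8.31 and 7.80, a difference of -1.01 (SE 0.18, adjusted p = 0.00082). Psmb7, which cleaves after basic residues, read 8.87, 9.06 and 8.64 against 9.61, 9.88 and 9.93, a difference of -0.95 (SE 0.14, adjusted p = 0.000233). In each of these the lowest control lay above the highest array labelled morphant, and for psmb6 control replicate 2 was the highest array. The remaining standard beta genes, psmb2, psmb3 and psmb4, fell by 0.66, 0.78 and 0.36, and the fall of psmb4 was lost under Bacillus control scaling (-0.12, adjusted p = 0.313).

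The alpha ring was mixed. Besides psma4, the genes psma2b, psma6a and psma8 fell, by 0.67, 0.85 and 0.80. Psma5 differed by -0.09 (95% interval -0.33 to 0.14) and psma1 by -0.33 (adjusted p = 0.0793). Psma1 was called once the replicate number entered as a block (adjusted p = 0.032), after joint quantile normalization (adjusted p = 0.0308) and without control replicate 1 (-0.46, adjusted p = 0.018). The last alpha gene, psma6l, a relative of psma6a, was at background in both groups. The 2 genes for the same alpha position, psma2a and psma2b, gave different calls. Psma2b read 8.21, 8.32 and 8.48 in arrays labelled morphant and 8.89, 9.14 and 8.97 in controls. Psma2a read 8.61, 8.73 and 8.73 and 8.62, 8.75 and 8.91, so that its groups overlapped (difference -0.07, 95% interval -0.32 to 0.18). The within-array log2 ratio of psma2b to psma2a was lower in all 3 arrays labelled morphant than in any control, with a mean change of -0.60 (exact permutation test, two-sided, p = 0.1, adjusted over 4 pairs p = 0.1, the smallest that 3 against 3 arrays allow). The 4 pairs are those of psma2, psmd4 and psmc1 and the pair of psmg3 and psmg2, whose ratio is not reported because the pair was picked for its opposite calls.

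Genes of the immune-type beta subunits, which replace the catalytic ones in vertebrate immune cells, were not called. The values for psmb8a, psmb9a, psmb10, psmb12 and psmb13a differed by amounts between -0.16 and 0.32. The genes psmb8a, psmb9a and psmb13a were at background in both groups, so that their levels have only an upper bound. Psmb9a and psmb13a were called as higher under Bacillus control scaling (0.56 and 0.41, adjusted p = 0.00508 and 0.0147), and psmb9a also after joint quantile normalization and without replicate 1 labelled morphant (adjusted p = 0.0133 and 0.0303), with both groups at background. Psmb10, which was above background, read 6.49, 6.41 and 6.59 in arrays labelled morphant and 6.32, 6.49 and 6.61 in controls, and its interval ran from -0.23 to 0.28. In the RefSeq gene order psmb8a, psmb9a, psmb12 and psmb13a lie together, with at most 2 genes between any pair of them. The 15 core genes outside this group had a median of -0.78.

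In the cap, the ATPase ring split by subunit. Psmc3 read 8.96, 9.17 and 8.97 in arrays labelled morphant and 10.21, 10.32 and 10.08 in controls, a difference of -1.17 (SE 0.11, adjusted p = 1.39e-05) with no overlap. Its neighbour in the ring psmc6 also fell, by 0.82 (adjusted p = 9.03e-05), as did psmc5, by 1.01 (adjusted p = 0.00014). The other ATPases were not called, except psmc1a as higher under Bacillus control scaling (0.41, adjusted p = 0.0125). Psmc4, which sits beside psmc5, read 9.68, 9.84 and 9.48 against 9.66, 9.72 and 9.79 with overlapping groups (difference -0.06, 95% interval -0.32 to 0.20). Psmc2 differed by -0.10 (95% interval -0.38 to 0.17) and its ring neighbours psmc1a and psmc1b by 0.17 and -0.16. The psmc1b probe set is of a kind whose probes may match other transcripts, so its value is uncertain. The within-array log2 ratio of psmc1b to psmc1a changed by -0.33, from -0.44 to -0.04 in controls to -0.86 to -0.44 in arrays labelled morphant (exact permutation test, two-sided, p = 0.1, adjusted over 4 pairs p = 0.1, the smallest possible).

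Of the non-ATPase subunits of the finished cap, 4 of 11 fell and 0 rose (limma, with 0 higher at an unadjusted p below 0.05). These 11 leave out psmd5, psmd9 and psmd10, a choice made after values were seen that removed the 2 called rises. Of all 14 non-ATPase cap genes, 28.6% fell and 14.3% rose, beside 21.5% and 26% of all genes. Psmd7, the lid subunit that partners the deubiquitinating enzyme of the cap, read 8.07, 7.93 and 7.98 in arrays labelled morphant and 8.74, 8.91 and 8.69 in controls. All 3 arrays labelled morphant were lower than any control, and the difference was -0.79 (SE 0.11, adjusted p = 0.000155). The lid gene psmd13 fell by 0.60 and the lid gene psmd8 by 0.31 (adjusted p = 0.0376); the latter call was lost without replicate 1 or 2 labelled morphant (adjusted p = 0.142 and 0.0652) and without control replicate 1 or 3 (adjusted p = 0.0721 and 0.118). It was also lost under Bacillus control scaling (-0.07, adjusted p = 0.577) and after joint quantile normalization (-0.23, adjusted p = 0.0927). The largest cap subunits, psmd1 and psmd2, which bind substrates, differed by -0.22 and 0.08 and were not called, though psmd2 was called as higher under Bacillus control scaling (0.32, adjusted p = 0.0364). Psmd6, a lid gene, read 9.91, 9.82 and 9.91 and 9.95, 9.88 and 10.05, a difference of -0.08 (95% interval -0.31 to 0.15). The lid genes psmd3, psmd11b and psmd12 differed by -0.19, -0.43 and -0.31. Psmd11b was called without replicate 1 labelled morphant (-0.66, adjusted p = 0.0398) and psmd12 without replicate 2 labelled morphant (-0.46, adjusted p = 0.0227).

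Psmd4, the ubiquitin receptor of the cap, has 2 genes on the array, and they gave different calls. Psmd4b read 6.17, 6.20 and 5.93 in arrays labelled morphant and 6.44, 7.06 and 6.46 in controls, with control replicate 2 the highest. It fell by 0.55 (SE 0.17, adjusted p = 0.0221), and not without replicate 3 labelled morphant (-0.47, adjusted p = 0.0978). Psmd4a read 7.76, 7.87 and 7.75 and 7.73, 7.81 and 7.61, with overlapping groups. The within-array log2 ratio of psmd4b to psmd4a changed by -0.63, and its values in the groups did not overlap (exact permutation test, two-sided, p = 0.1, adjusted over 4 pairs p = 0.1, the smallest possible). Under Bacillus control scaling psmd4b was not called and psmd4a was, as higher (adjusted p = 0.145 and 0.0297).

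**Figure D2:**
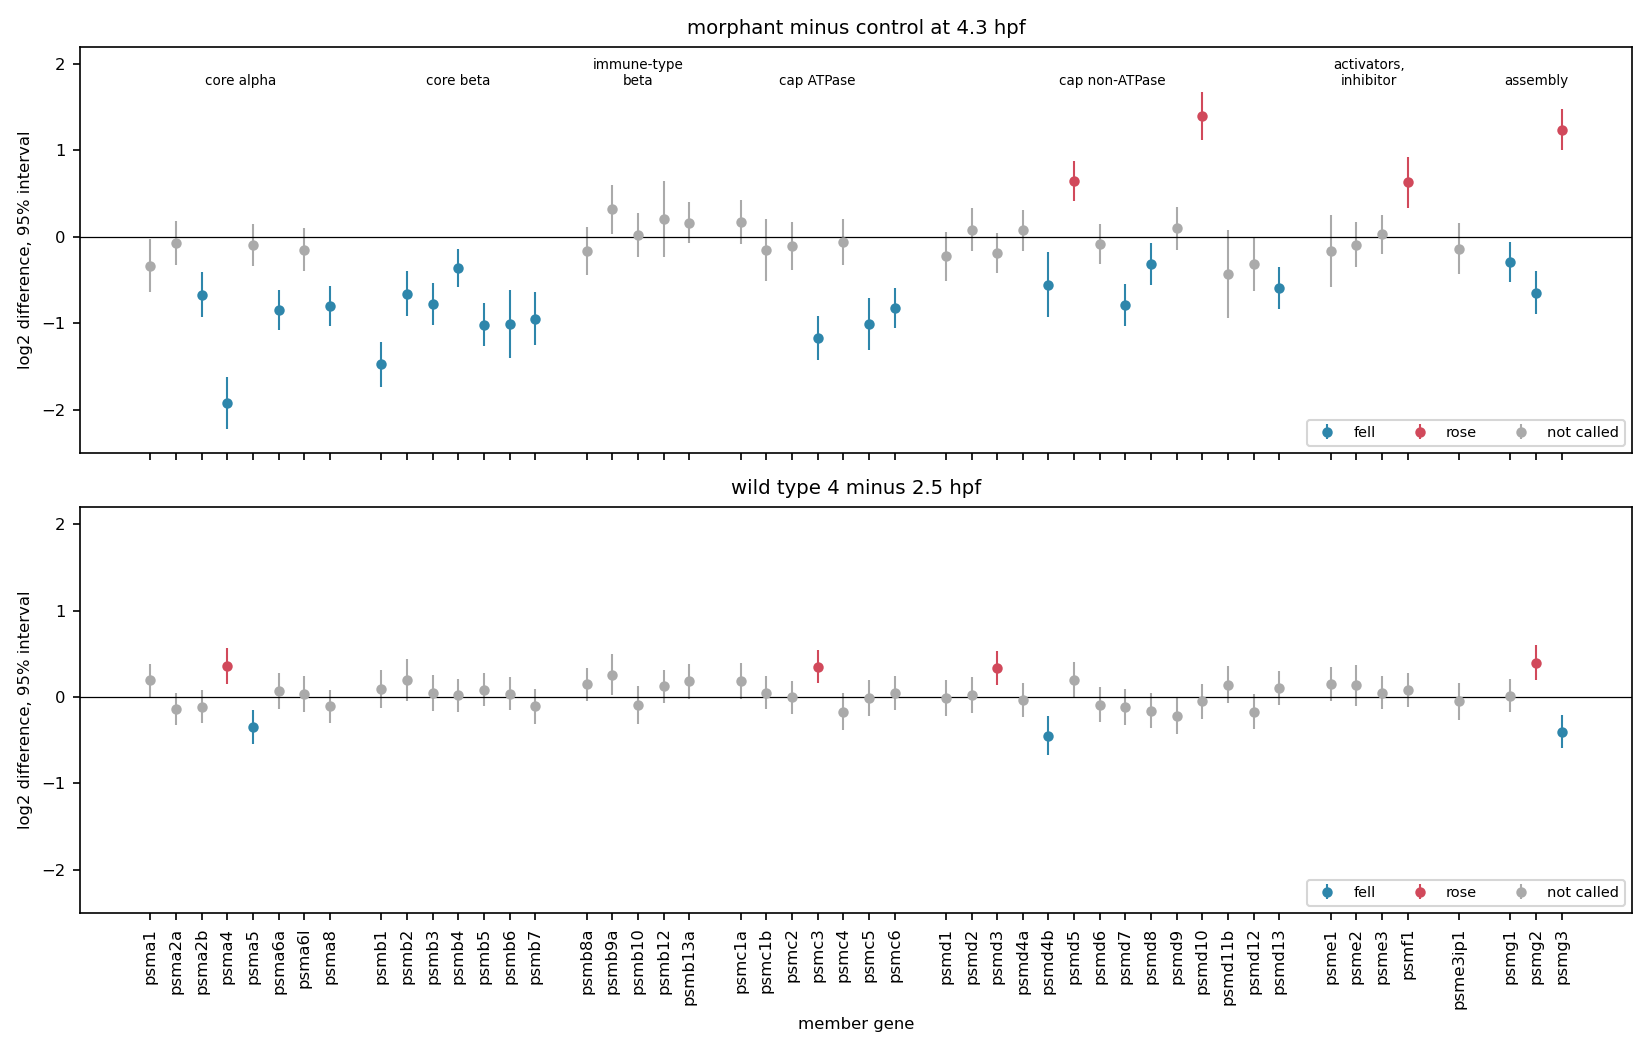
Log2 difference (y axis) of each member gene (x axis) with its 95% interval from limma, for arrays labelled morphant minus controls (upper) and wild type 4 minus 2.5 hpf (lower); blue points fell, red points rose and grey points were not called at an adjusted p below 0.05. The upper differences run from -1.92 (psma4) to 1.40 (psmd10), the lower from -0.45 (psmd4b) to 0.40 (psmg2).

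Of 3 chaperones of the cap, 2 rose. Psmd10, also called gankyrin, which in mammals holds psmc4 and psmc5 during assembly, read 9.47, 9.60 and 9.23 in arrays labelled morphant and 8.05, 7.92 and 8.14 in controls. Every array labelled morphant lay above the highest control, and the rise was 1.40 (SE 0.12, adjusted p = 7.91e-06), or 2.63-fold. Psmd5, which holds psmc1 and psmc2, read 6.15, 6.13 and 6.13 against 5.38, 5.57 and 5.53, a rise of 0.65 (SE 0.10, adjusted p = 0.000463). The remaining chaperone of this kind, psmd9, which holds psmc3 and psmc6, was not called (0.10, 95% interval -0.15 to 0.35), though it was called as higher under Bacillus control scaling (0.34, adjusted p = 0.038). This grouping of 3 of the 14 psmd genes was made after their values were seen. Leaving out these 3 removed the 2 called rises of the cap. Of the 38 core and cap genes outside this grouping, 18 fell and 0 rose (limma, with 1 higher at an unadjusted p below 0.05). That is 47.4% falling, where 21.5% of all genes fell and 26% rose. Under Bacillus control scaling 15 of the 38 fell and 5 rose, the rises being those of psmb9a, psmb13a, psmc1a, psmd2 and psmd4a. The shares of all genes that fell and rose under this scaling were not counted.

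The 3 assembly genes of the alpha ring were each called, and not in one direction. That is 66.7% falling and 33.3% rising, beside 21.5% and 26% of all genes. Psmg3 read 8.28, 8.53 and 8.43 in arrays labelled morphant and 7.18, 7.15 and 7.19 in controls. The controls lay close together and below every array labelled morphant, and psmg3 rose by 1.24 (SE 0.11, adjusted p = 5.98e-06), or 2.36-fold. Psmg2 read 5.67, 5.84 and 5.58 against 6.24, 6.41 and 6.38 and fell by 0.65 (SE 0.11, adjusted p = 0.000815). Psmg1, the partner of psmg2, read 7.80, 7.89 and 7.80 against 8.06, 8.06 and 8.25. Its fall of 0.29 (adjusted p = 0.0479) was lost once the replicate number entered as a block (adjusted p = 0.0528) and when any array but control replicate 2 was left out (adjusted p = 0.0657 to 0.169). Under Bacillus control scaling it differed by -0.05 (adjusted p = 0.711).

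Among the regulators of the finished core, the inhibitor gene psmf1 rose and no activator gene was called. Psmf1 encodes a protein that inhibits the core in vitro in mammals. It read 7.92, 7.73 and 7.83 in arrays labelled morphant and 7.35, 6.93 and 7.31 in controls, with control replicate 2 the lowest, a rise of 0.63 (SE 0.13, adjusted p = 0.00268). Its second probe set also rose, by 0.97 (SE 0.12, adjusted p = 9.6e-05). Psme3, the nuclear activator, read 9.82, 9.83 and 9.95 and 9.85, 9.89 and 9.76, with overlapping groups and a difference of 0.03 (95% interval -0.20 to 0.26); it was called as higher only under Bacillus control scaling (0.27, adjusted p = 0.0396). The interferon-induced activators of mammals, psme1 and psme2, were at background in both groups. Psme3ip1 differed by -0.14 (adjusted p = 0.47).

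**Figure D3:**
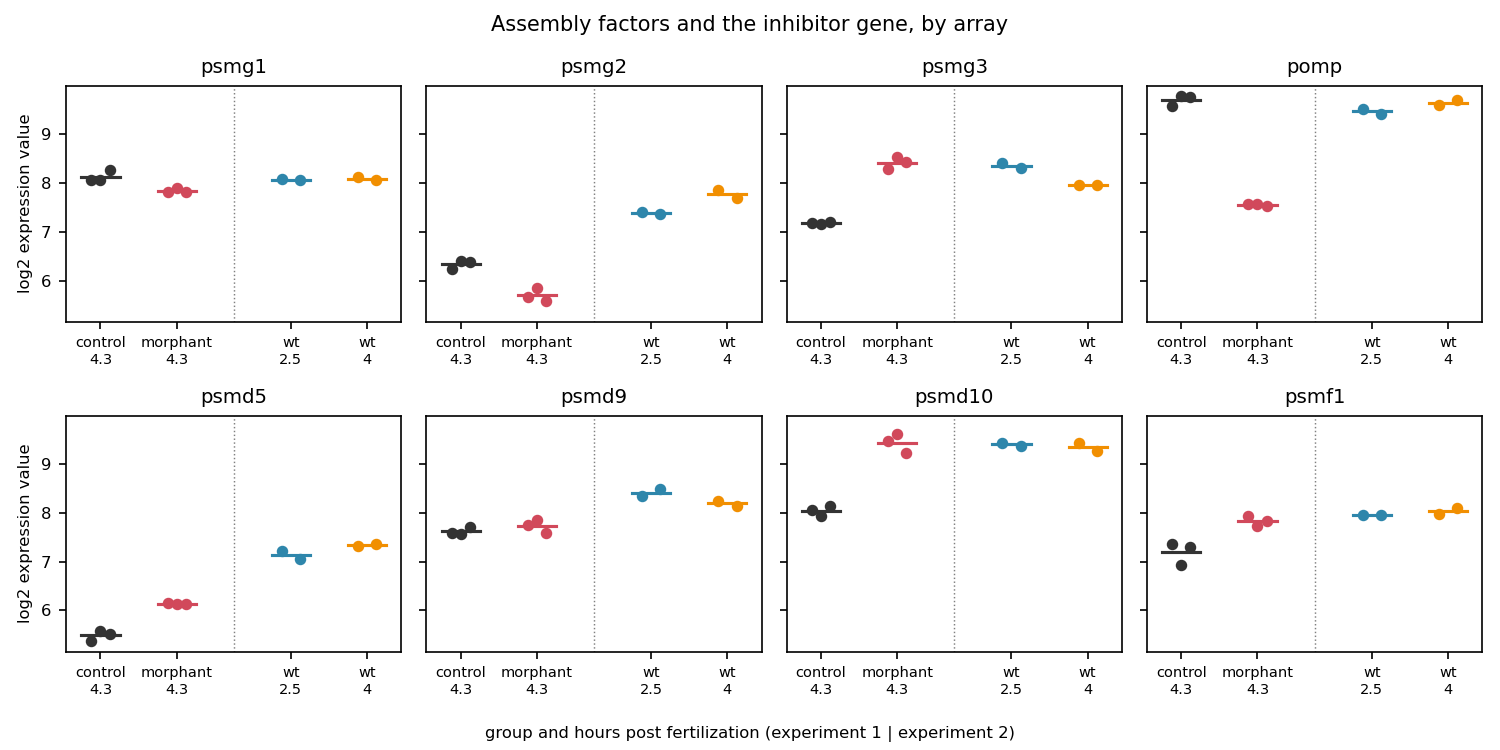
Log2 expression value (y axis) of the assembly factors psmg1, psmg2, psmg3, pomp, psmd5, psmd9 and psmd10 and of the inhibitor gene psmf1 on every array, by group (x axis), with a bar at each group mean; the dotted line separates the experiments, whose levels are not comparable. Psmg3, psmd5, psmd10 and psmf1 are higher in arrays labelled morphant than in any control, whereas pomp, psmg1 and psmg2 are lower, and from 2.5 to 4 hpf psmg2 is higher and psmg3 lower.

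Set against each other, the core was lower than the cap in each array labelled morphant. As the median over genes of the deviation from the control mean, the core lay at -0.60, -0.48 and -0.45 in the 3 arrays labelled morphant, and the cap -0.17, -0.14 and -0.24. The core-minus-cap difference was -0.43, -0.34 and -0.21 there and -0.08, 0.05 and close to 0 in the controls. Controls lie near 0 by construction, since deviations are taken from their own mean. Without psmd5, psmd9 and psmd10 the median difference of the cap was -0.27, beside -0.51 for the core. All genes of the array had medians of -0.06, -0.01 and 0.04 in the arrays labelled morphant. Bacillus control scaling adds a constant to every difference and moved the median of all probe sets from -0.04 to 0.21. Under it the median difference of the cap went from -0.19 to 0.05 and that of the core to -0.27. Both were below the median of all probe sets with and without this scaling, an order fixed in advance, since a constant cannot change it. These medians are descriptions of the chosen genes, without a test.

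**Figure D4:**
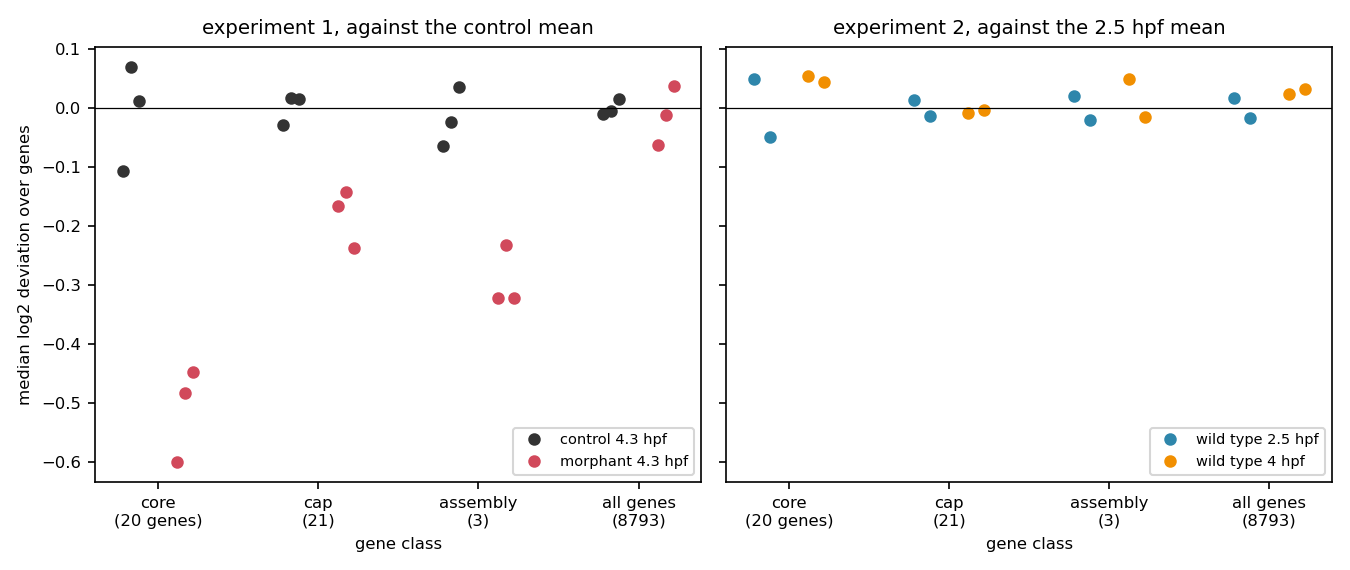
Median over genes of the log2 deviation (y axis) of each array (points) from the mean of the control arrays (left) or of the 2.5 hpf arrays (right), for core, cap and assembly genes and for all 8793 genes (x axis). In the left panel the core medians of arrays labelled morphant lie at -0.45 or lower and their cap medians at -0.14 to -0.24, while in the right panel every point lies close to 0.

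Partners of the proteasome outside the psm names were also read. Of 9 measured genes, 4 fell and 1 rose, or 44.4% and 11.1% beside 21.5% and 26% of all genes, with a median of -0.26. Pomp, the chaperone of the beta ring, read 7.56, 7.57 and 7.53 in arrays labelled morphant and 9.57, 9.77 and 9.76 in controls, a fall of 2.15 (SE 0.10, adjusted p = 2.13e-07). That difference exceeded the fall of psma4, the largest of any member. The other falls were those of txnl1, a thioredoxin-like protein bound to the cap (-0.79), the small cap subunit sem1 (-0.56) and usp14, a deubiquitinating enzyme of the cap (-0.45). Ecpas, which bridges core and cap, rose by 0.56 (adjusted p = 0.0413). Adrm1, a ubiquitin receptor, and uchl5, a deubiquitinating enzyme, were not called.

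For the pathway lists upstream of the proteasome, too, the shares over all genes were 21.5% falling and 26% rising. Of 18 ubiquitin shuttles and segregase genes, 6 fell and 3 rose (33.3% and 16.7%, median -0.16), with the shuttle gene ubqln4 at -1.15 and zfand6 at 1.57 the largest fall and rise. Of 33 ubiquitin genes and activating or conjugating enzymes, 14 fell and 7 rose (42.4% and 21.2%, median -0.19). The largest fall was that of rps27a (-1.60), which encodes ubiquitin fused to a ribosomal protein, and the largest rise that of the conjugating enzyme gene ube2t (1.65). Of 38 genes of cullin ligases and of the anaphase-promoting complex, 14 rose and 7 fell (36.8% and 18.4%, median 0.06), with anapc10 at -2.16 the largest fall. The cullin genes cul5a and cul5b had the largest measured rises, but both were at background in controls, so that their rises were at least 3.71-fold and 4.02-fold and have no order.

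The second comparison asks which proteasome transcripts changed in wildtype embryos across the mid-blastula transition. Of the 49 members, 4 rose, 3 fell and 42 were not called. That is 8.16% and 6.12% of the members, beside 8.86% and 11.8% of all genes. No called difference was larger than 0.45 on the log2 scale, and 0 of the 7 standard beta genes was called by limma, with 0 at an unadjusted p below 0.05. The median difference was 0.06 over core genes, -0.01 over cap genes and 0.04 over all members, beside 0.03 over all genes. Calls rested on 2 arrays a group: without 2.5 hpf replicate 2, 0 members rose and 2 fell, without 4 hpf replicate 2, 1 rose and 3 fell, and without 4 hpf replicate 1, 4 rose and 1 fell, so that of the 7 calls only that of psmg3 was kept under every one of the 11 alternatives.

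The largest rise and a fall of similar size lay in the assembly genes. Psmg2 lay at 7.40 and 7.36 in the 2.5 hpf arrays and at 7.86 and 7.70 in the 4 hpf arrays, a rise of 0.40 (SE 0.09, adjusted p = 0.0117). That call was lost without 2.5 hpf replicate 2 (adjusted p = 0.0627) or 4 hpf replicate 1 (adjusted p = 0.0713). Psmg3 lay at 8.40 and 8.30 in the 2.5 hpf arrays and at 7.95 and 7.95 in the 4 hpf arrays, a fall of 0.40 (SE 0.09, adjusted p = 0.00859; 0.000696 to 0.0419 over the alternatives). Both 4 hpf arrays were thus above both 2.5 hpf arrays for psmg2 and below them for psmg3. Of the 49 members, 28 had times that did not overlap, most of them not called. The share over all genes was not counted. Psmg1 read 8.08 and 8.05, then 8.11 and 8.05, a difference of 0.02 (95% interval -0.17 to 0.21).

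In the core, 1 gene rose and 1 fell. That is 5% of the core genes each way, beside 8.86% rising and 11.8% falling over all genes. Psma4 lay at 8.73 and 8.53 in the 2.5 hpf arrays and at 8.94 and 9.04 in the 4 hpf arrays, a rise of 0.36 (SE 0.10, adjusted p = 0.0244). Psma5, another alpha gene, read 9.34 and 9.26 and 8.92 and 8.98, a fall of 0.35 (SE 0.09, adjusted p = 0.0184). In both genes the times did not overlap, which also holds for members not called. It held for 28 of the 49 members, and the share over all genes was not counted. The psma4 call was lost without 2.5 hpf replicate 2 or 4 hpf replicate 2 and with median centring (adjusted p = 0.185, 0.0873 and 0.0615). That of psma5 was lost without replicate 1 of either time (adjusted p = 0.0748 and 0.0744). The beta genes lay close to 0: psmb5 read 8.70 and 8.70 and then 8.74 and 8.82 (95% interval of the difference -0.11 to 0.28), and the 7 standard beta genes ranged from -0.11 to 0.20. Of the immune-type beta genes, 4 of 5 were at background at both times.

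In the cap, 2 genes rose and 1 fell. That is 9.52% and 4.76% of the cap genes, beside 8.86% and 11.8% of all genes. The ATPase gene psmc3 lay at 9.02 and 8.96 in the 2.5 hpf arrays and at 9.32 and 9.35 in the 4 hpf arrays, a rise of 0.35 (SE 0.09, adjusted p = 0.0165). The lid gene psmd3 read 8.44 and 8.41 and 8.71 and 8.81, a rise of 0.33 (SE 0.09, adjusted p = 0.0218). Both calls were lost without replicate 2 of either time, with adjusted p-values of 0.0918 and 0.0575 for psmc3 and 0.1 and 0.116 for psmd3, and that of psmd3 also with median centring (adjusted p = 0.065). The ubiquitin receptor gene psmd4b read 7.04 and 7.17 and 6.53 and 6.78, a fall of 0.45 (SE 0.10, adjusted p = 0.011), and was not called without 2.5 hpf replicate 2 or 4 hpf replicate 1 (adjusted p = 0.0758 and 0.0642). Psmd4a, its paralogue, read 8.52 and 8.39 and 8.43 and 8.40 (difference -0.04, 95% interval -0.23 to 0.16). The ratio of psmd4b to psmd4a changed by -0.41 (exact permutation test, two-sided, p = 0.333, the smallest that 2 against 2 arrays allow, adjusted over 4 pairs p = 0.444).

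The chaperones and the inhibitor that were higher in arrays labelled morphant were not called over this interval, apart from psmg3. Psmd10 lay at 9.43 and 9.36 in the 2.5 hpf arrays and at 9.43 and 9.27 in the 4 hpf arrays, with overlapping values and a difference of -0.05 (95% interval -0.25 to 0.15). Psmd5 differed by 0.20 (adjusted p = 0.151) and psmf1 by 0.08 (95% interval -0.12 to 0.28). Psmd9 read 8.33 and 8.49 and 8.24 and 8.14, a difference of -0.22 that was not called (adjusted p = 0.123) except with median centring (-0.31, adjusted p = 0.0457). Pomp read 9.52 and 9.40 and 9.58 and 9.70, a difference of 0.18 (adjusted p = 0.188).

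The members' calls were set side by side for both experiments. The experiments share no arrays, so each comparison has its own controls. Of the 20 members that fell in arrays labelled morphant, 3 rose from 2.5 to 4 hpf (psma4, psmc3 and psmg2), 1 fell (psmd4b) and 16 were not called. Those 20 ranged from -0.45 to 0.40 over that interval, with 7 below 0 and 13 above it. Of the 4 that rose in arrays labelled morphant, psmg3 fell from 2.5 to 4 hpf and the others were not called. Each of the 4 genes psma4, psmc3, psmg2 and psmg3 was called in opposite directions in the experiments, and psmd4b in the same direction. Psma5 and psmd3 were called only from 2.5 to 4 hpf, and 23 members were called in neither experiment. Over all genes 21.5% fell and 26% rose in experiment 1, and 11.8% fell and 8.86% rose in experiment 2. How many of all genes were called in both, in opposite directions or the same, was not counted, so these member counts have no share beside them.

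For 7 members with several probe sets the probe sets could be compared. In experiment 1 no second probe set was called in the direction opposite to the brightest one, and the second psmg1 probe set differed by -0.30 without a call (adjusted p = 0.0756). In experiment 2 psmd12 was discordant: its brightest probe set lay at 9.79 and 9.69 in the 2.5 hpf arrays and at 9.62 and 9.52 in the 4 hpf arrays and was not called, whereas the other read 5.14 and 5.04, at background, and then 6.57 and 6.58, at least 1.27-fold higher (adjusted p = 3.25e-07). The dimmer probe set's values did not overlap between times and moved by 1.49 as measured, more than any brightest probe set of a member. Of the 4 probe sets of psme3ip1, the brightest differed by -0.05 and 2 others fell, by 0.53 and 0.34 (adjusted p = 0.00512 and 0.0194). The first of these was at background at both times. Where the probes lie within these genes was not analysed here.

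Over the mid-blastula transition the pathway lists are read beside all genes, of which 8.86% rose and 11.8% fell. Of 9 partners of the proteasome, 0 rose (limma; 2 at an unadjusted p below 0.05) and 1 fell, sem1 (-0.30, adjusted p = 0.0336). Of 18 shuttle and segregase genes 2 rose and 1 fell, with yod1 at 0.49 and zfand6 at -0.44. Of 33 ubiquitin genes and enzymes 2 rose and 6 fell, with the conjugating enzyme gene ube2g1b at 0.46 and uba3, of the enzyme that activates the ubiquitin-like protein Nedd8, at -0.71. Of 38 ligase genes 3 rose and 13 fell, or 7.89% and 34.2%, with anapc16 at 0.43 and cul5a at -0.66 the largest in each direction. The medians of these lists were -0.06, 0.07, -0.04 and -0.11, beside 0.03 over all genes.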

How the data were processed

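Total RNA of whole embryos (Trizol and RNeasy, biotin-labelled cRNA, per the labels' protocols) was measured on 10 Affymetrix Zebrafish Genome Arrays. The deposited values are log2 expression values that the authors made with RMA in the affy package, per the submitters' processing notes; versions are not stated there. Array medians of 5.40 to 5.44 in experiment 1 and 6.16 to 6.26 in experiment 2 show that each experiment was normalized apart. Array data have no read depth; precision is limited by 3 and 2 arrays a group. Of 15617 probe sets 115 controls were left out. Of the rest, 10795 had 1 annotated gene, 135 several and 4572 none, and unnamed probe sets entered the fits without a name. Names came from GEO's platform annotation, and all 49 members matched RefSeq by Entrez identifier.

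Each experiment was fitted alone with limma 3.58.1 in R 4.3.3, with Benjamini-Hochberg adjustment over 15502 probe sets, and a gene was called at an adjusted p below 0.05. By the rule for named genes, values on every array were given for all psmg genes and the largest called rise and fall of each subset and experiment. They were also given for genes called in opposite directions in the experiments and for paralogue pairs with different calls. For each pathway list the size of the largest called rise and fall was given, without array values except for pomp and cul5a. Values of further members, such as the catalytic subunits, the cap chaperones, psmb10, psmc4, psmd6, psme3 and pomp, were added for their roles after values had been seen. A fold from background is a bound, the brighter group's mean over the dim group's background value. The fits were run on simulated arrays with independent noise. That check lacks the shared deviation of same-numbered arrays described below, and no result here rests on it. The members and all gene lists were chosen with earlier results of these data known. Same-numbered arrays deviated together in experiment 1 (correlations 0.318, 0.202 and 0.114) and not in experiment 2 (-0.0241). The main fits nevertheless used the group alone, and the permutation tests shuffled arrays without regard to replicate number. Only the alternative with a replicate block took the pairing into account. Alternatives were a replicate block, scaling on 27 Bacillus control probe sets, median centring, joint quantile normalization, a filter on dim probe sets, a trended robust variance, the mean of all probe sets of a gene, and leaving out each array.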

Additional observations from a re-analysis of the deposited data

How the results depend on the processing

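With the replicate number as a block, 20 members fell and 4 rose in experiment 1, as without it, with psmg1 lost and psma1 gained. Of the 20 falls, 16 were called under all 13 alternatives, and so were the 4 rises; the exceptions were psmb4, psmd4b, psmd8 and psmg1. Leaving out 1 array gave 18 to 20 falls and 4 to 5 rises. Bacillus control scaling gave 11 rises, and medians of -0.27 for the core, 0.051 for the cap and -0.051 for the assembly genes. It adds a constant to every difference, and the share of all genes that rose under it was not counted. The core median was -0.72 with the dim filter, which tests fewer genes, and the cap median -0.23 after joint quantile normalization, whose cause was not tested. Leaving out 1 array gave medians of -0.59 to -0.45 for the core, -0.24 to -0.14 for the cap and -0.32 to -0.23 for the assembly genes.

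In experiment 2, leaving out 1 array gave 1 to 3 falls and 0 to 4 rises, and medians of -0.0056 to 0.12 for the core, -0.030 to 0.018 for the cap and -0.02 to 0.05 for the assembly genes. Median centring gave 2 rises and medians of -0.027, -0.10 and -0.068, and joint quantile normalization 0.035 for the cap and 0.086 for the assembly genes. The cause was not tested. Over 22 results of the genes that the naming rule gives, in both experiments and counted per alternative, 23 calls were lost, 1 was gained and 0 were reversed. Genes at background on these arrays have only a bound.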

Other observations

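Of 6 genes of the cul5 ubiquitin ligase measured, picked after their values were seen, 4 were called in opposite directions in the experiments and 2 were not. The share of all genes so called was not counted. The pattern was not particular to these genes. Of the 7 maternal and pluripotency markers, buc, dazl and mos also rose in arrays labelled morphant and fell from 2.5 to 4 hpf, and the others did not do both. The cullin genes cul5a and cul5b rose from background in arrays labelled morphant, by at least 3.71-fold and 4.02-fold, and fell from 2.5 to 4 hpf, on the log2 scale by 0.66 and 0.38. On the same scale rnf7, the ring protein that binds this cullin, rose by 1.34 and fell by 0.32, and eloca, of the adaptor elongin C, rose by 1.85 and fell by 0.30. Its paralogue elocb was called in neither experiment (-0.19 and -0.10), and elob, of the adaptor elongin B, was not called in experiment 1 (-0.29, adjusted p = 0.0761) and fell in experiment 2 by 0.36. Cul5a read 7.43, 6.99 and 6.65 in arrays labelled morphant, 5.03, 5.18 and 4.49 in controls, 7.68 and 8.02 at 2.5 hpf and 7.10 and 7.27 at 4 hpf, so that neither comparison had overlapping groups.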
